A study of Mus musculus with 2 samples.

Results

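The genes described here are 9 mouse genes through which microglia sense and clear extracellular nucleotides and related signals: P2ry12, P2ry13, P2ry14, P2ry6, Gpr34, P2rx4, P2rx7, Adora3 and Entpd1. They were taken by symbol from the gene list of the deposited count matrices, and all 9 were found among 27998 genes. The study profiled YFP-positive cells sorted from mouse spinal cord with droplet-based single-cell RNA sequencing (10x Genomics, tags at the 3′ end of each transcript, counted by unique molecular identifier, UMI). There were 2 libraries, 1 per group, so no difference between the groups has a replicate check and no test was possible. All mice were on the C57BL/6J background and of the Cx3cr1-CreERT2-YFP::flxRunx1 strain, in which a tamoxifen-activated Cre recombinase and YFP are made under control of Cx3cr1, a fractalkine receptor gene of microglia and other myeloid cells, and Runx1 is flanked by Cre target sites. The wild-type group carried these alleles too and received vehicle, and the Runx1 knock-out group received tamoxifen at 1 mg per day in 5 daily intraperitoneal injections. Spinal cords were taken 4 weeks after the first injection. They were dissociated for 30 min at 37 °C in 2 mg/ml collagenase, and YFP-positive cells were then sorted. The sources used here do not state how many animals each library holds or their ages, and tamoxifen and loss of Runx1 cannot be told apart in this design.

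Extracellular ATP, ADP, UDP and adenosine are signals of tissue damage and of neuronal activity. P2Y receptors couple nucleotides to G proteins, P2X receptors are ATP-gated cation channels, adenosine receptors sense the end product of ATP breakdown, and ectonucleotidases on the cell surface break ATP and ADP down. Microglia are known for P2Y12, the ADP receptor that steers their processes toward sites of injury, and in the spinal cord P2X4 and P2X7 of microglia are well known from work on neuropathic pain.

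P2ry12, P2ry13 and P2ry14 form a gene cluster on chromosome 3 (GRCm38, GENCODE M21). P2ry12 lies at chr3:59216272-59262871, P2ry13 at chr3:59207892-59210882 and P2ry14 at chr3:59113855-59153618, all on the minus strand. P2ry13 and P2ry12 are 5389 bases apart, and P2ry14 and P2ry13 are 54273 bases apart. All 3 lie within Med12l, a Mediator subunit gene transcribed from the plus strand. Promoter windows from RefSeq (GRCm38.p6), 250 bases before to 50 bases after a start site, were held for 7 of the 9 genes. The windows of these neighbours are shown because P2ry12 and P2ry13 had the largest ratios between the libraries among the 8 genes measured in microglia-like cells, while P2ry14 was read mainly in vessel wall cells. Each is written 5′ to 3′ on the minus strand, and capitals mark matches to the motifs searched. For P2ry14, which has 4 windows, the most upstream is shown.
P2ry12, chr3:59262936-59263235: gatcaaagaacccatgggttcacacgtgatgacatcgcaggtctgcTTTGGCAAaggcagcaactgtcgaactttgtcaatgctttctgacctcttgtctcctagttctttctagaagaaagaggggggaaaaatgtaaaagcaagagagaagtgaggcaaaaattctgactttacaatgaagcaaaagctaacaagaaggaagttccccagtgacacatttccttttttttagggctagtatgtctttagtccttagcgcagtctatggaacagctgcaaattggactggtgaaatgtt
P2ry13, chr3:59210833-59211132: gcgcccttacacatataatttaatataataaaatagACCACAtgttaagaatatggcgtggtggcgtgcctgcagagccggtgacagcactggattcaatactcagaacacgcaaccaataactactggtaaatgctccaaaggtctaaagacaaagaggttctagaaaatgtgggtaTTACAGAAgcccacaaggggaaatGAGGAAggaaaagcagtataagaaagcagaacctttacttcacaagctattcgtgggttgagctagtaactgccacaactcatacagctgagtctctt
P2ry14, chr3:59153443-59153742: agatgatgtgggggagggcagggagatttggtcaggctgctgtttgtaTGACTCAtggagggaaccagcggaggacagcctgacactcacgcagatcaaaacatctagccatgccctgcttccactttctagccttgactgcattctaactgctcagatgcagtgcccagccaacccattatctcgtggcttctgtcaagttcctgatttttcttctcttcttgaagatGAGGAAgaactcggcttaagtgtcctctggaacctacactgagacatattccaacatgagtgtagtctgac

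The motifs searched, on both strands, were RUNX (TGTGGT), PU.1 (GAGGAA), C/EBP (TTNNGNAA), AP-1 (TGANTCA) and MEF2 (CTA, then 4 bases of any kind, then TAG). The P2ry12 window held 1 match, to C/EBP, which starts at base -204 from the start site. The P2ry13 window held a RUNX match at -214, a C/EBP match at -72 and a PU.1 match at -48. The P2ry14 window held an AP-1 match at -202 and a PU.1 match at -21. Over all 32851 promoter windows of the same length, 16.8% held the RUNX letters, 28.3% PU.1, 40.7% C/EBP, 7.81% AP-1 and 3.69% MEF2, and the matches are given as descriptions of the sequence. Apart from P2ry13, the RUNX letters were found in 1 other window of these genes, that of Entpd1 at chr19:40659520-40659819, 34 bases after the start site.

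Cells were grouped by clustering without these genes, and clusters were named from marker lists. The wild-type-labelled library held 4582 barcodes with a median of 6376 UMIs and the knock-out-labelled library held 2596 after filtering, with a median of 3718.5. The submitters gave 4500 and 2600 recovered cells. The barcodes shared by the libraries numbered 9. Microglia-like cells numbered 2174 and 1351 (median 5505 and 3464 UMIs), endothelial-like cells 1614 and 840 (5929 and 3583) and pericyte or smooth muscle-like cells 181 and 126 (10495 and 5819). The libraries formed separate clusters: of the microglia-like cells, cluster 0 held 2158 wild-type and 2 knock-out cells, cluster 2 held 1349 knock-out cells alone and cluster 13 held 16 wild-type cells alone. Endothelial-like clusters 1 and 3 were split in the same way, and cluster 7, which also carried venous markers, held cells of both libraries. A large cluster of 593 deep cells with microglial and endothelial markers (cluster 4) was left unnamed, as were 42 and 27 cells of clusters 9 and 10. All 16 microglia markers had UMIs in microglia-like cells of both libraries, with sums of 48964 and 48885 CPM (UMIs per 1000000 UMIs of the same cells). Runx1, the targeted gene, was at 92.8 CPM in microglia-like cells of the wild-type-labelled library and at 180 CPM (170 to 191) in those of the knock-out-labelled library, so it did not bear out the label. Tags at the 3′ end may lie outside the deleted stretch, which the labels do not describe. Ratios below therefore compare the knock-out-labelled library with the wild-type-labelled library, and their direction does not stand for loss of Runx1.

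P2ry12 RNA was higher in microglia-like cells of the knock-out-labelled library and was the only one of the 9 genes past 1.5-fold there, where 8.16% of all genes measured were higher by as much. With free RNA taken out as described below it was under 1.5-fold (log2 ratio 0.54), and the count of genes higher by 1.5-fold was 0. The share of all genes was not computed for that setting. The ADP receptor gene was at 1775 CPM (95% Poisson interval 1754 to 1796, from 27721 UMIs) in the wild-type-labelled library and at 3238 CPM (3193 to 3283, from 19822 UMIs) in the knock-out-labelled library. The log2 ratio was 0.87 (0.84 to 0.89), a 1.82-fold difference. Intervals here and below cover counting error only, and the spread between animals was not measured. With each cell thinned to 1500 UMIs, which left out no cell, 89.9% of wild-type and 96.9% of knock-out microglia-like cells had a P2ry12 UMI (99.7% and 99.3% unthinned). Endothelial-like cells, which should lack the gene, had a thinned share of 45.8% and 36.0% (89.3% and 66.7% unthinned). The shares of microglia-like cells are to be read above that background.

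P2ry13, a second ADP receptor gene and the nearest neighbour of P2ry12, stood in the same direction with a smaller ratio. Its level was 266 CPM (258 to 275) in the wild-type-labelled library and 397 CPM (381 to 413) in the knock-out-labelled library. The log2 ratio was 0.58 (0.50 to 0.65), or 1.49-fold (1.42 to 1.57), so the interval spans the 1.5-fold line. Thinned shares of microglia-like cells with a P2ry13 UMI were 33.2% and 44.0%, against 11.3% and 7.86% of endothelial-like cells (unthinned, 75.6% and 74.3% against 41.9% and 19.3%).

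P2ry14, the third gene of the cluster, encodes a receptor for UDP-sugars, and in microglia-like cells it was near the limit of detection. It had 72 UMIs in wild-type and 33 UMIs in knock-out microglia-like cells (4.61 and 5.39 CPM), and its log2 ratio of 0.23 (-0.42 to 0.84) spanned equality. Thinned shares of cells with a UMI were 0.69% and 0.74%, which is no higher than in endothelial-like cells beyond counting error (0.434% and 0.595%, intervals 0.175 to 0.892 and 0.194 to 1.38). The adjacent P2ry13 had 4159 and 2430 UMIs in the same cells.

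P2ry6, which encodes a UDP receptor known for its part in phagocytosis, did not differ between the libraries beyond counting error. Its level in microglia-like cells was 207 CPM (200.2 to 214) in the wild-type-labelled library and 205 CPM (194 to 216) in the knock-out-labelled library, and the log2 ratio was -0.02 (-0.11 to 0.08). The gene lies apart from the others, at chr7:100937630-100974649 on the minus strand. Thinned shares of cells with a P2ry6 UMI were 27.4% and 26.1%, against 11.3% and 2.98% in endothelial-like cells (unthinned, 69.2% and 52.9% against 42.0% and 9.40%).

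Gpr34, a relative of the P2Y12 group whose product responds to the lipid lysophosphatidylserine, was slightly higher in the knock-out-labelled library, except with free RNA taken out as described below (log2 ratio -0.08). Microglia-like cells held 753 CPM (739.9 to 767) in the wild-type-labelled library and 910.3 CPM (887 to 934) in the knock-out-labelled library, a log2 ratio of 0.27 (0.23 to 0.32). Thinned shares of cells with a Gpr34 UMI were 67.1% and 71.8% (unthinned, 95.8% and 91.2%), and those of endothelial-like cells were 19.3% and 8.69% (55.0% and 23.8%). The gene is X-linked (chrX:13632089-13640858, plus strand) and lies within Cask on the opposite strand. Xist had 0 UMIs in microglia-like cells of both libraries and the Y-linked Ddx3y was at 53.4 and 54.4 CPM. In cells with 3000 to 6000 UMIs, where the libraries overlap in depth, the Gpr34 log2 ratio was 0.03.

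The ATP-gated channel genes P2rx7 and P2rx4 are neighbours on chromosome 5, 16111 bases apart on the plus strand, at chr5:122643911-122691432 and chr5:122707544-122729738. P2rx4 was at 87.3 CPM (82.8 to 92.1) in microglia-like cells of the wild-type-labelled library and at 71.1 CPM (64.5 to 78.1) in those of the knock-out-labelled library, a log2 ratio of -0.30 (-0.46 to -0.14). P2rx7 was at 43.5 CPM (40.3 to 46.9) and 48.0 CPM (42.7 to 53.8), with a log2 ratio of 0.14 (-0.06 to 0.34) that spans equality. The intervals of the P2rx4 and P2rx7 ratios do not overlap, that of P2rx4 lying below 0 and that of P2rx7 spanning it, and neither was past 1.5-fold. Thinned shares of cells with a UMI were 11.9% and 9.70% for P2rx4 and 5.52% and 7.62% for P2rx7. In endothelial-like cells they were 5.08% and 2.74%, and 1.98% and 1.07% (unthinned, 23.0% and 9.64%, and 10.3% and 3.21%).

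Adora3 encodes the A3 adenosine receptor, and its level was lower in the knock-out-labelled library by less than 1.5-fold, or by more with free RNA taken out (log2 ratio -0.63). It was at 73.6 CPM (69.4 to 77.9) and 58.3 CPM (52.4 to 64.7), a log2 ratio of -0.34 (-0.51 to -0.16). The value is uncertain, since 3 of the 5 exons of Adora3 (chr3:105870858-105908926, plus strand) overlap Tmigd3 on the same strand, which had 19 UMIs and 1 UMI in the same cells. Thinned shares of microglia-like cells with an Adora3 UMI were 11.2% and 9.18%, against 3.53% and 1.55% in endothelial-like cells (unthinned, 37.9% and 22.1% against 14.1% and 3.69%).

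Entpd1 encodes CD39, the enzyme that breaks ATP and ADP down to AMP, and was higher in the knock-out-labelled library by less than 1.5-fold. Its level was 132 CPM (126 to 138) in the wild-type-labelled library and 173 CPM (163 to 184) in the knock-out-labelled library, a log2 ratio of 0.39 (0.28 to 0.50). The gene lies at chr19:40612366-40741602 on the plus strand. Thinned shares of microglia-like cells with an Entpd1 UMI were 19.0% and 23.2%, and those of endothelial-like cells 10.5% and 8.10% (unthinned, 55.2% and 49.1% against 40.5% and 22.7%).

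**Figure D1:**
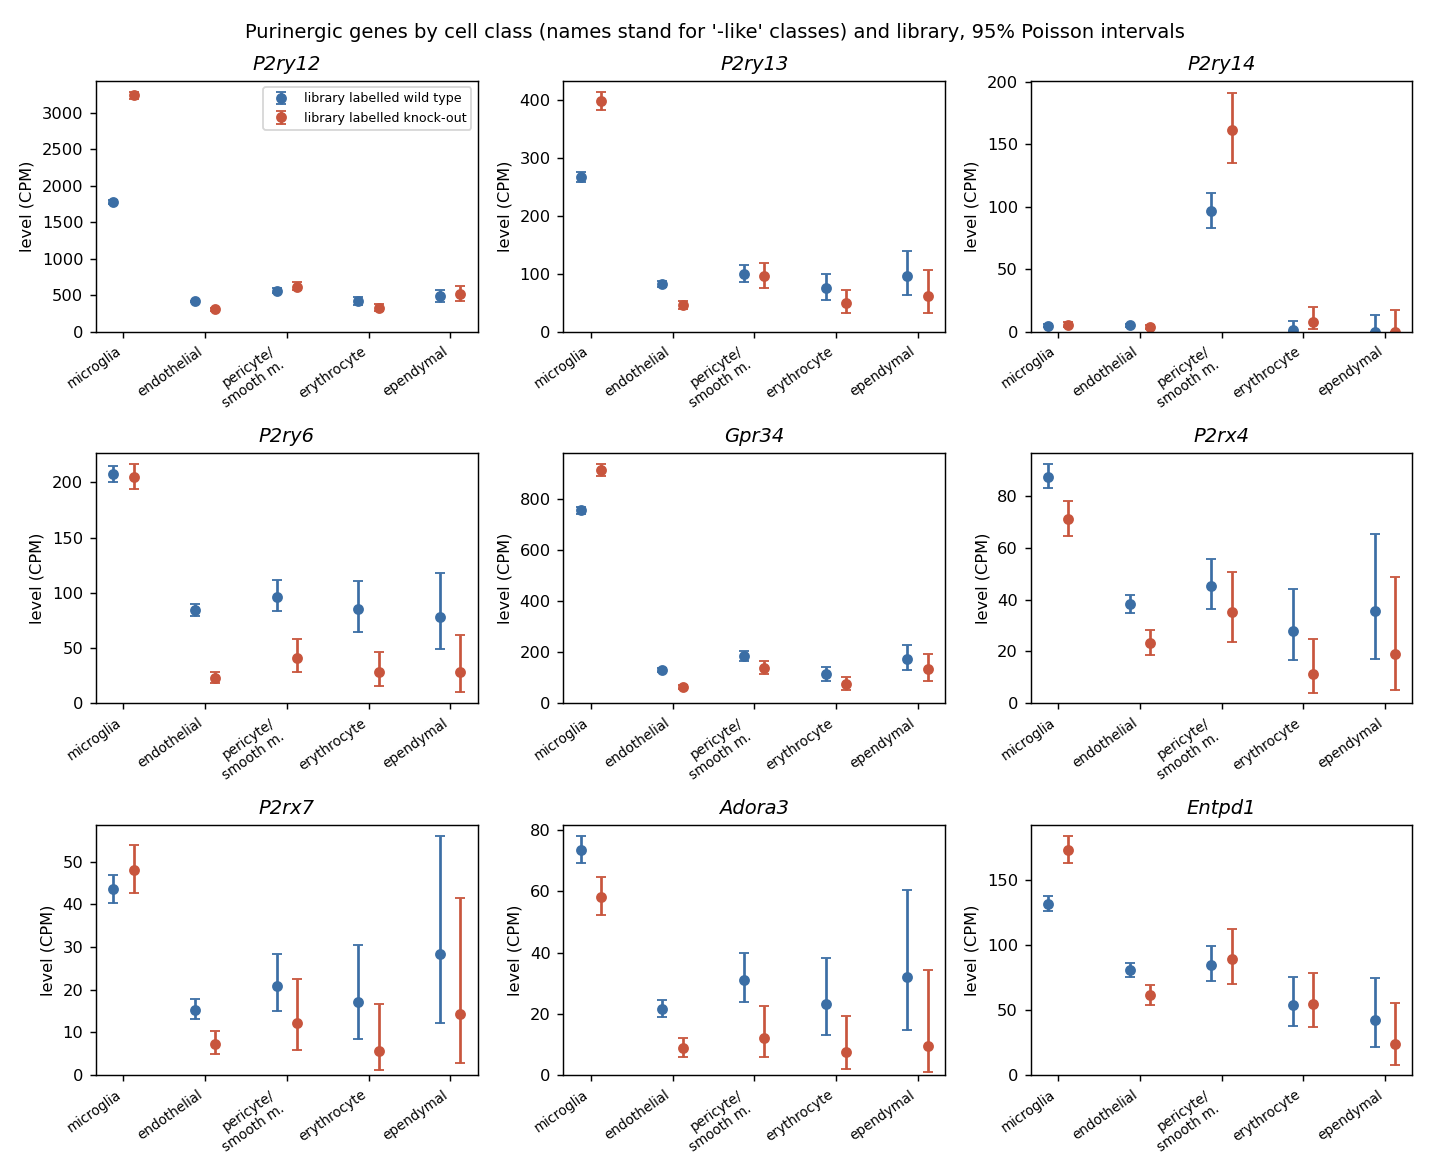
Level of each gene (CPM, y axis from 0) in 5 named cell classes (x axis), with blue points for the wild-type-labelled library, red points for the knock-out-labelled library and bars for 95% Poisson intervals. P2ry12 in microglia-like cells was at 1775 and 3238 CPM, while P2ry14 was highest in pericyte or smooth muscle-like cells, at 96.1 and 161 CPM.

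Read together, 8 of the 9 genes reached 20 CPM in microglia-like cells of at least 1 library, P2ry14 being the exception. Of these 8, 1 was higher by at least 1.5-fold and 0 were lower. Over all 5748 genes at that level, 8.16% were higher and 12.5% lower by as much, so 1 of 8 is near the background. At 2-fold the counts were 0 and 0, beside 1.79% and 5.39% of all genes. The median log2 ratio of the 8 was 0.21 (-0.10 with free RNA taken out), and that of all genes was -0.04. Among 446 genes that were at least 2-fold higher in microglia-like than in endothelial-like and pericyte or smooth muscle-like cells of both libraries, 27.8% were higher and 2.91% lower by 1.5-fold, with a median of 0.33. The group held 6 of the 9 genes (P2ry12, P2ry13, P2ry6, P2rx7, Gpr34 and Adora3), of which 1 was higher and 0 lower, with a median of 0.21.

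RNA of other cells moved alongside these ratios. The 11 endothelial markers summed to 7442 CPM in microglia-like cells of the wild-type-labelled library and to 2420 CPM in those of the knock-out-labelled library, and none was at 0 in either. If every endothelial marker UMI of microglia-like cells came from free RNA with the composition of the whole library, the free shares were 51.5% and 20.6% of UMIs. With that share taken out, the log2 ratio of P2ry12 was 0.54, under 1.5-fold, and those of P2ry13 and Entpd1 were 0.28 and 0.21. Under the same correction P2ry6 was at -0.25, P2rx7 at -0.12, Gpr34 at -0.08, P2rx4 at -0.55 and Adora3 at -0.63, which is past 1.5-fold lower, so that the signs of P2rx7 and Gpr34 turned. P2ry12 also differed less at matched depth, with a log2 ratio of 0.67 in cells of 3000 to 6000 UMIs. Platelet markers, relevant because platelets also carry P2Y12, summed to 67.2 and 92.3 CPM over 7 genes in microglia-like cells, of which 2 and 3 were at 0. In other classes the sum was lower in the knock-out-labelled library. It was 45.2 and 29.2 CPM in endothelial-like, 40.2 and 29.3 CPM in pericyte or smooth muscle-like and 35.6 and 30.3 CPM in erythrocyte-like cells. The part of platelet RNA in these ratios was not tested.

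**Figure D2:**
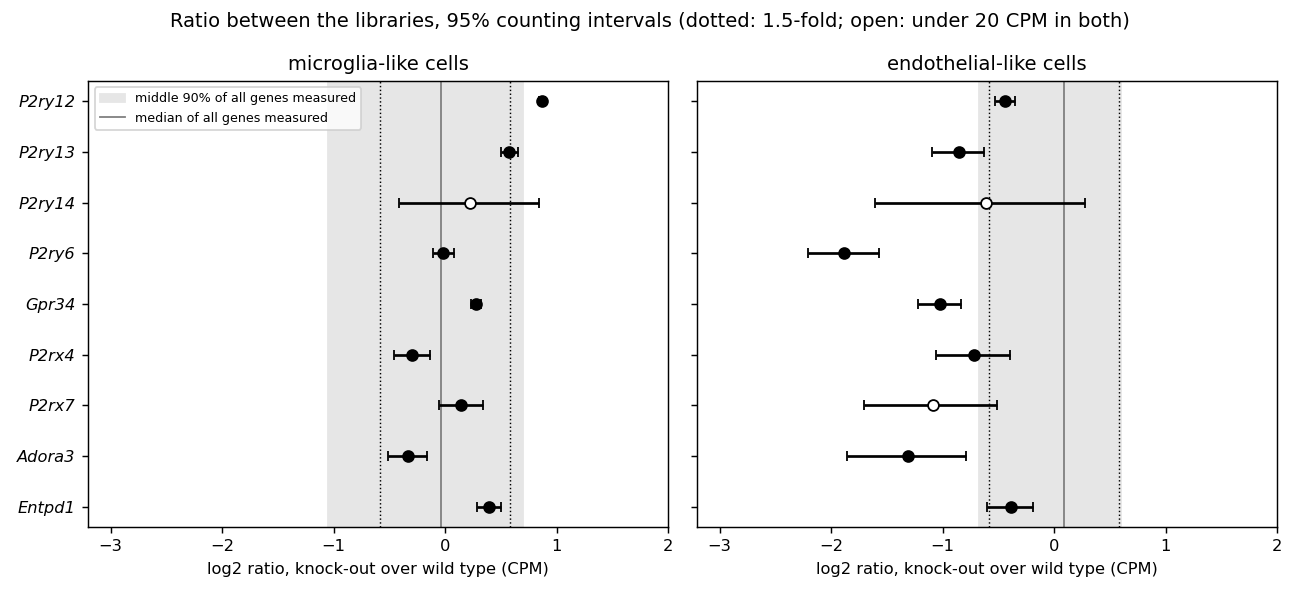
Log2 ratio of the knock-out-labelled library over the wild-type-labelled library (x axis) for each gene (y axis) in microglia-like cells (left) and endothelial-like cells (right), with 95% counting intervals, the middle 90% of all genes in grey and 1.5-fold dotted. P2ry12, at 0.87, lies beyond the upper dotted line on the left, whereas all 7 filled points on the right lie below 0.

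Outside microglia the order of the levels was the same for most of the genes. In both libraries P2ry12, P2ry13, P2ry6, Gpr34, P2rx4, P2rx7, Adora3 and Entpd1 were highest in microglia-like cells among the microglia-like, endothelial-like and pericyte or smooth muscle-like classes, and P2ry14 was the exception. Microglia-like cells held 66.7% and 82.6% of all P2ry12 UMIs, beside 41.7% and 46.9% of all UMIs. Endothelial-like cells held 412 CPM of P2ry12 (400.5 to 424) in the wild-type-labelled library and 304 CPM (287 to 322) in the knock-out-labelled library. Cluster 7 on its own had 373 and 272 CPM. Pericyte or smooth muscle-like cells had 559 CPM (526 to 593) and 617 CPM (564 to 673). Much of that came from a sub-cluster of 38 and 17 cells with Itgam, Ccl12 and Rgs1 among its leading genes and a microglia marker sum of 29223 CPM, which held 911 and 2030 CPM (537 of 1099 and 238 of 506 UMIs). In the other sub-clusters P2ry12 lay between 383 and 414 CPM in the wild-type-labelled library and between 372 and 395 CPM in the knock-out-labelled library. Erythrocyte-like cells, 54 and 72 in number, had 416 and 325 CPM. The levels in erythrocyte-like and endothelial-like cells did not differ beyond their counting intervals in either library.

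In endothelial-like cells every measured gene of the 9 had a lower level in the knock-out-labelled library. There 7 of the genes reached 20 CPM, and 5 of them (P2ry13, P2ry6, Gpr34, P2rx4 and Adora3) were lower by at least 1.5-fold in the knock-out-labelled library and 0 higher, with a median log2 ratio of -0.86. Of all 6285 genes, 5.27% were higher and 5.89% lower by as much. P2ry6 had the lowest ratio, with 84.4 CPM (79.3 to 89.9) against 22.9 CPM (18.5 to 28.1), and Gpr34 was at 131 against 64.3 CPM. The 16 microglia markers moved with this, at 18539 CPM against 6820 CPM in the same cells and with none at 0, and the part of microglial RNA in these ratios was not tested. In pericyte or smooth muscle-like cells all 9 genes reached 20 CPM, of which 1 was higher (P2ry14) and 3 were lower, beside 10.9% and 8.55% of all 6750 genes. The 3 were P2ry6, Adora3 and P2rx7, the last from 41 and 10 UMIs with an interval that spans equality, and the microglia markers there summed to 21584 and 10663 CPM.

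Set against microglia marker RNA in the same cells, the genes took different places. Microglia-like cells held 4.23 and 4.19 P2ry6 UMIs per 1000 microglia marker UMIs in the wild-type- and knock-out-labelled libraries, and endothelial-like cells held 4.55 and 3.36. The log2 differences of P2ry6 were small and of opposite sign, 0.11 (0.002 to 0.21) and -0.32 (-0.64 to -0.01). The P2rx7 ratio was not distinguishable from that in microglia-like cells, with log2 differences of -0.10 (-0.35 to 0.14) and 0.11 (-0.49 to 0.66). P2ry12 and Gpr34 in endothelial-like cells were below their ratio in microglia-like cells, by -0.71 and -0.57 for P2ry12 and by -1.13 and -0.98 for Gpr34. In erythrocyte-like cells these values were -0.60 and -0.55 for P2ry12 and -1.25 and -0.83 for Gpr34. Entpd1 exceeded its ratio in microglia-like cells in endothelial-like cells of both libraries, by 0.69 (0.58 to 0.80) and 1.35 (1.14 to 1.55). In pericyte or smooth muscle-like cells it did so by 0.55 (0.31 to 0.78) and 1.24 (0.88 to 1.58). In erythrocyte-like cells Entpd1 was at 0.21 (-0.32 to 0.69), which spans 0, and at 1.11 (0.52 to 1.64), from 35 and 29 UMIs. Those cells also held endothelial marker RNA, with sums of 16045 and 15271 CPM, beside 15475 and 15530 CPM in pericyte or smooth muscle-like cells. Whether the excess is particular to vessel cells was not tested. CD39 is also known from vascular endothelium. P2rx4 exceeded its ratio in microglia-like cells in endothelial-like cells by 1.23 (0.89 to 1.55) in the knock-out-labelled library and by 0.21 (0.05 to 0.36) in the wild-type-labelled library. In pericyte or smooth muscle-like cells the P2rx4 values were 1.19 (0.59 to 1.73) and 0.23 (-0.09 to 0.54) in the same order.

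**Figure D3:**
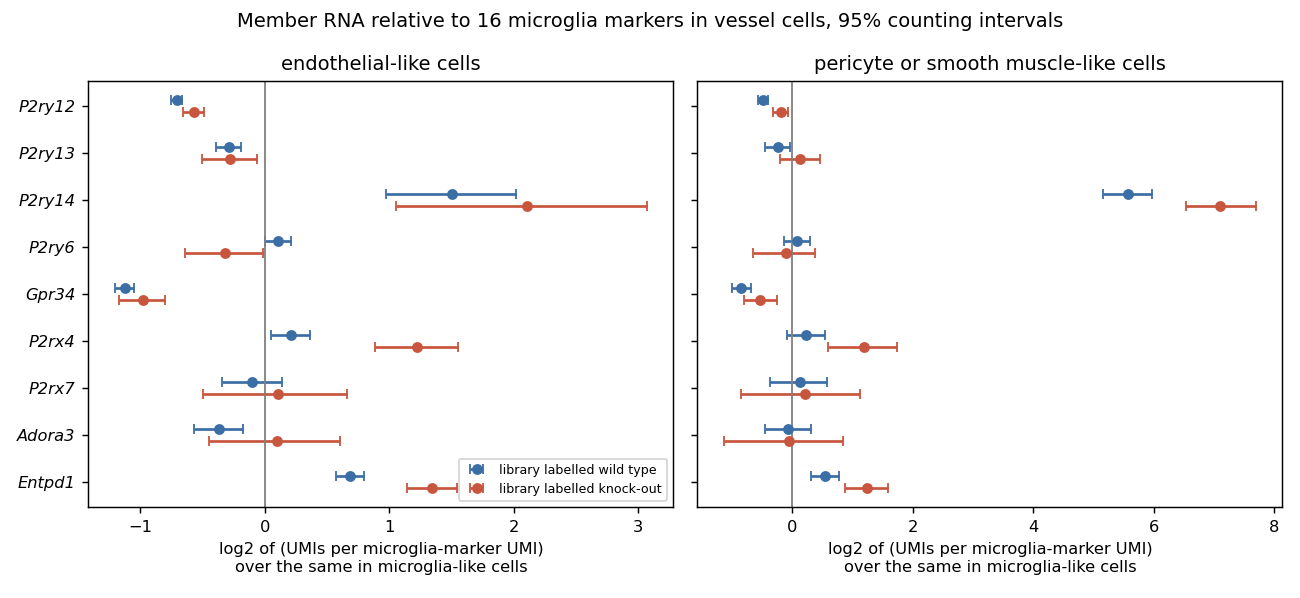
UMIs of each gene per microglia marker UMI in endothelial-like (left) and pericyte or smooth muscle-like cells (right), as log2 over the same ratio in microglia-like cells (x axis), by library, with 95% counting intervals. P2ry14 lies far to the right in pericyte or smooth muscle-like cells, at 5.56 and 7.10, and Entpd1 lies right of 0 in both classes.

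P2ry14 was the one gene of the 9 read mainly outside microglia. Pericyte or smooth muscle-like cells, 3.95% and 4.85% of the cells, held 52.9% and 69.8% of all P2ry14 UMIs. Its level there was 96.1 CPM (82.9 to 111) in the wild-type-labelled library and 161 CPM (135 to 191) in the knock-out-labelled library, a log2 ratio of 0.74 (0.41 to 1.07). Thinned shares of these cells with a P2ry14 UMI were 14.9% and 17.5%, against 0.69% and 0.74% of microglia-like cells (unthinned, 51.4% and 51.6% against 3.22% and 2.37%). The class itself was not uniform, and its division by clustering, added after these levels were seen, gave 4 sub-clusters. P2ry14 was highest in the sub-cluster led by Kcnj8, Abcc9 and Vtn, which are pericyte genes, with 213 CPM (183 to 247) over 95 cells. It was at 182 CPM in the 45 wild-type cells and at 257 CPM in the 50 knock-out cells of that sub-cluster, and their intervals, 147 to 224 and 206 to 316, overlap. The other sub-clusters held 70.2, 72.2 and 84.3 CPM, the last in the sub-cluster led by the smooth muscle genes Pln, Tagln and Acta2, and were alike within counting error. P2ry14 was higher in knock-out than in wild-type cells of all 4 sub-clusters (66.2 and 79.2, 182 and 257, 64.5 and 111, and 77.6 and 106 CPM in wild-type and knock-out cells), with overlapping intervals in each. The Kcnj8-led sub-cluster made up 45 of 181 wild-type and 50 of 126 knock-out cells of the class, and the part of this makeup in the class-wide ratio was not tested.

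Within microglia-like cells, P2ry12, P2ry13 and Gpr34 had their highest and their lowest levels in the same sub-clusters of each library. Each library was clustered again on its own, again without these genes, into sub-clusters W0 to W3 of the wild-type-labelled library and K0 to K3 of the knock-out-labelled library. P2ry12 was highest in W0 (2181 CPM, 2147 to 2215) and in K0 (4188 CPM, 4095 to 4284), both of which had Txnip among their leading genes. It was lowest in W1 (1223 CPM, 1189.5 to 1257), led by Spp1, Cxcl2, Bcl2a1d and Il1b, and in K1 (2389.8 CPM, 2302 to 2480.0), led by Arl5c, Il1a and Sdc4 and with Cd83 and Maff among its leading genes. K3, led by Spp1, Lpl and Cxcl10, held 2775 CPM. P2ry13 followed the same order at its ends, with 328 and 188 CPM in W0 and W1 and 535 and 278 CPM in K0 and K1. So did Gpr34, with 927 and 528 CPM in W0 and W1 and 1162 and 625 CPM in K0 and K1. The chemokine gene Ccl3 was at 2989 CPM in W0 and 5537 CPM in W1, and at 2117 CPM in K0 and 3963 CPM in K1.

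Entpd1 and P2ry6 spanned less. Entpd1 lay between 109 and 141 CPM over W0 to W3 and between 158 and 180 CPM over K0 to K3. P2ry6 lay between 166 and 227 CPM and between 159 and 236 CPM. P2rx7 lay between 21.8 CPM (from 16 UMIs) and 47.9 CPM over W0 to W3 and between 46.0 and 53.0 CPM over K0 to K3. For P2ry12, with free RNA not taken out, each of the 4 knock-out sub-clusters was above each of the 4 wild-type ones, the nearest pair being K1 and W0. Endothelial markers summed to 7422 CPM in W0 and to 2433 CPM in K1. Whether this order of P2ry12 holds with free RNA taken out was not tested. For Gpr34 the libraries overlapped, with K1 below W0. Microglia markers also differed between these sub-clusters, with 51563 CPM in W0 and 45182 in W1, and 53894 in K0 and 41002 in K1. The highest sums were in W3 (54804 CPM) and K2 (55992 CPM), where P2ry12 was at 1693 and 3493 CPM, below W0 and K0.

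**Figure D4:**
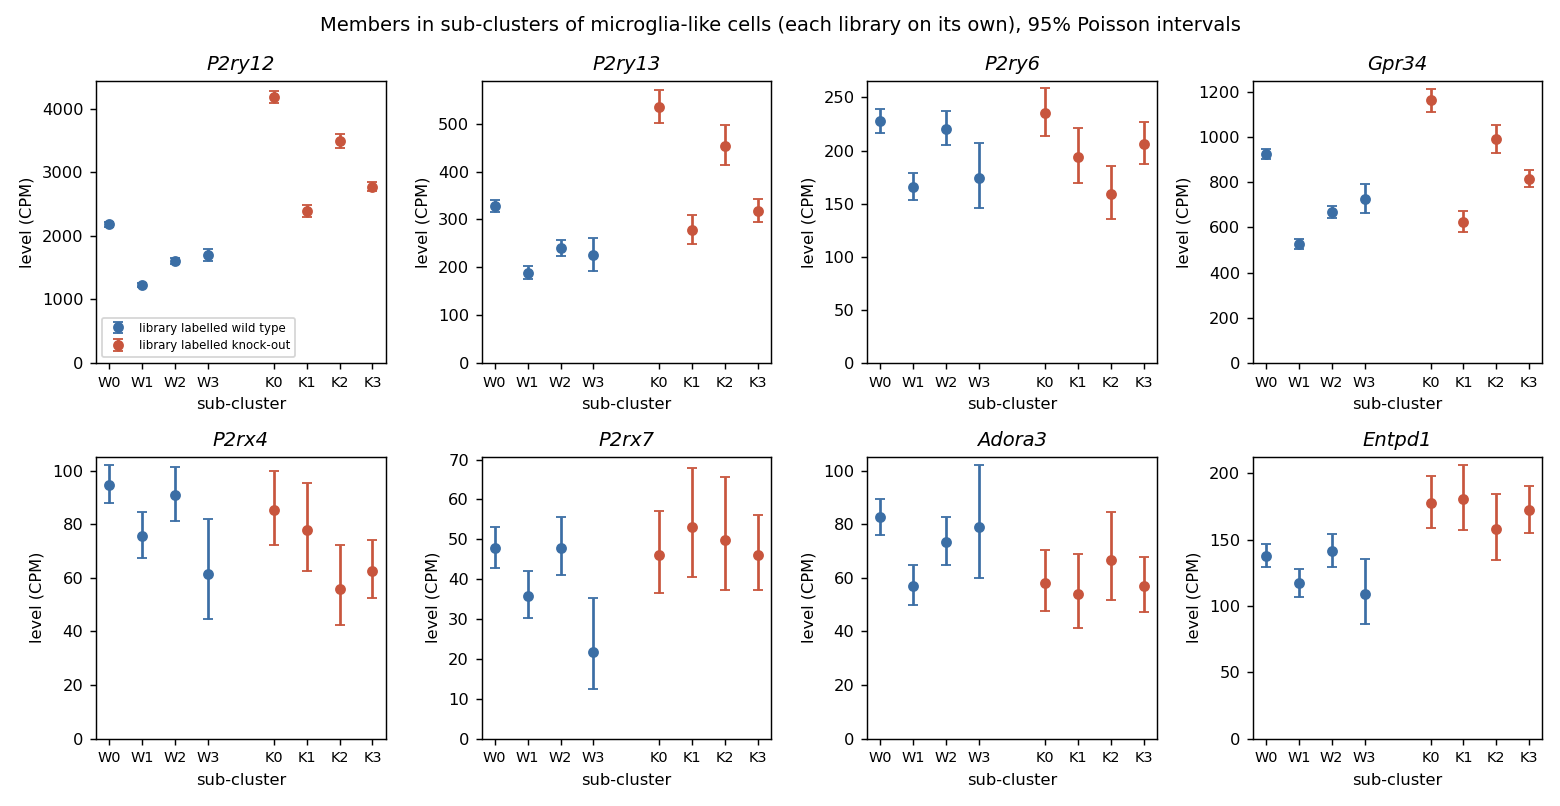
Level (CPM, y axis from 0) of 8 genes in sub-clusters of microglia-like cells (x axis), W0 to W3 from the wild-type-labelled library in blue and K0 to K3 from the knock-out-labelled library in red, with 95% Poisson intervals. P2ry12, P2ry13 and Gpr34 are lowest in W1 and K1. With free RNA not taken out, P2ry12 is higher in every red point than in any blue point.

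Per cell, with free RNA not taken out, P2ry12 differed at both ends of the distribution. In cells thinned to 1500 UMIs, the mean was 2.83 UMIs in the wild-type-labelled library and 5.12 UMIs in the knock-out-labelled library, and the median 3 and 5. Cells with 0 P2ry12 UMIs made up 10.1% and 3.11%, and cells with 10 or more 0.552% and 8.51%. Thinning does not remove free RNA, whose shares were put above at 51.5% and 20.6% of UMIs. Its part in these distributions was not tested. The variance over the mean was 1.44 and 2.04, while Gpr34 had 1.25 and 1.33 and P2ry6 0.988 and 1.07, a value of 1 being that of pure counting. At the same relative spread between cells this value rises with the mean. It therefore does not rank the spread of genes or libraries whose means differ. The means of Gpr34 were 1.22 and 1.44 UMIs and those of P2ry6 0.320 and 0.312 UMIs. A thinned cell had UMIs of a median of 3 of the 9 genes in both libraries, and 53.1% and 61.7% of cells had 3 or more. As a description over single cells of 1 library, which share depth and free RNA, the Pearson r of 36 pairs of the genes had medians of 0.0101 and 0.0166. The highest were those of P2ry12 with Gpr34 (0.180 over 2174 cells and 0.242 over 1351) and of P2ry12 with P2ry13 in the knock-out-labelled library (0.219). Counting error pulls r toward 0 where UMIs are few, and 94.5% and 92.4% of thinned cells had 0 P2rx7 UMIs. P2ry12, Gpr34 and P2ry13 had the highest mean UMIs of the 9 genes. The r values therefore do not show which pairs are linked or independent.

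**Figure D5:**
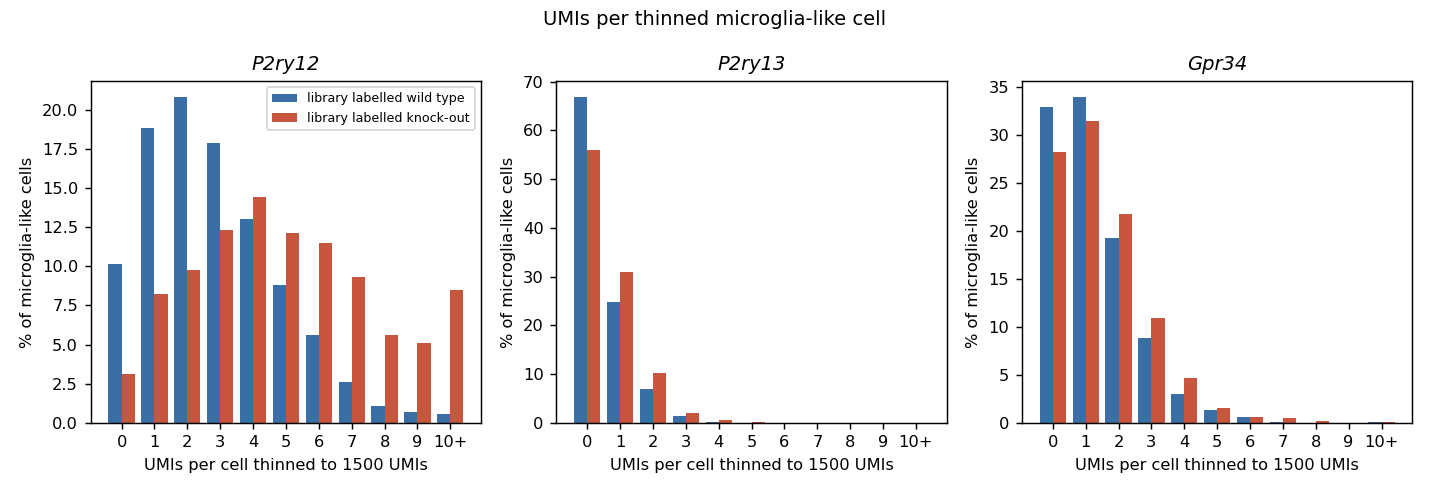
Share of microglia-like cells (percent, y axis from 0) with 0 to 10 or more UMIs (x axis) of P2ry12, P2ry13 and Gpr34 after thinning each cell to 1500 UMIs, blue for the wild-type-labelled library and red for the knock-out-labelled library. With free RNA not taken out, the P2ry12 median is 3 UMIs in blue and 5 in red, and 8.51% of red cells hold 10 or more.

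Other genes of nucleotide signalling were mostly under 20 CPM in microglia-like cells. Of the other P2Y and related receptors 0 of 8 in the files reached it, of the other P2X receptors 0 of 5 and of the other adenosine receptors 0 of 3. Adora2a, another adenosine receptor gene, was at 24.4 and 31.7 CPM in pericyte or smooth muscle-like cells and at 2.50 and 1.63 CPM in microglia-like cells. Of 20 genes of nucleotide breakdown and adenosine handling 3 were measured, with 0 higher and 0 lower, beside 8.16% and 12.5% of all genes. The 3 were Pnp, which splits inosine and guanosine (144 and 184 CPM, log2 ratio 0.36), and the nucleoside transporter genes Slc29a1 (-0.08) and Slc29a3 (-0.23). Nt5e, which encodes the CD73 enzyme that turns AMP into adenosine after CD39 has acted, had 1 UMI and 0 UMIs. Of 9 genes of nucleotide release 3 were measured, Lrrc8a, Lrrc8d and Calhm2, with 0 higher and 0 lower beside the same shares of all genes. In endothelial-like cells the phosphatase gene Alpl was at 44.7 and 53.1 CPM and Enpp2, which encodes autotaxin, at 42.2 and 50.1 CPM.

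The genes that act after the receptors were all measured in microglia-like cells for P2Y12 and P2X7. Of 14 genes of the P2Y12 chain 1 was higher by 1.5-fold and 0 lower, beside 8.16% and 12.5% of all genes, with a median log2 ratio of 0.40. The 1 was Pik3r5, the regulatory subunit of the G protein-coupled PI3-kinase (log2 ratio 1.16, 0.88 to 1.44), while its partner Pik3cg was at 0.51 and Gnai2, the Gi subunit that P2Y12 uses, at 0.20. Kcnk13, which encodes THIK-1, the potassium channel of microglia, was at 56.9 and 63.5 CPM (0.16, -0.02 to 0.33). Of 8 genes of the P2X7 chain 3 were higher and 0 lower, beside 8.16% and 12.5% of all genes, with a median of 0.18. The 3 were Nlrp3, the inflammasome sensor (26.1 and 46.4 CPM, 0.83), Casp4, the caspase-11 gene (25.5 and 51.0 CPM, 1.00), and Nek7, a partner of NLRP3 (75.8 and 115 CPM, 0.60). Nek7 was at 1.52-fold (1.38 to 1.67), so its interval spans the 1.5-fold line. Nlrp3 and Casp4 were among the 446 genes described above as higher in microglia-like than in vessel cells, of which 27.8% were higher by 1.5-fold. Il1b, whose product the inflammasome matures, was at 0.34, Pycard at -0.09 and Casp1 at -0.18. Of the 7 regulators and outputs of P2X4, 5 were measured with 0 higher and 0 lower, beside the same shares of all genes, and with a median of 0.26. Irf8, a factor known to act upstream of P2rx4, was at -0.18 (-0.24 to -0.13). The others measured went the other way, with Irf5 at 0.42 (0.31 to 0.53), Ptgs2 at 0.52, Mapk14 at 0.26 and Lyn at 0.21.

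Around the P2Y cluster, Med12l, the host gene on the other strand, was at 18.4 and 28.3 CPM in microglia-like cells, a log2 ratio of 0.62 (0.34 to 0.90). Of 11 genes listed as neighbours of any of the 9 genes, at all their loci, 5 were measured, of which 1 (Med12l) was higher by 1.5-fold and 0 were lower, beside 8.16% and 12.5% of all genes. Igsf10, which overlaps the end of Med12l, had 4 and 21 UMIs. The sources used here do not state the strand setting of the counting, so reads of P2ry12 and Med12l, which overlap in 1 exon of P2ry12, cannot be told apart with certainty.

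The genes with levels most like P2ry12 were sought among 2310 genes over 8 profiles, the 4 classes with at least 50 cells in each library times the 2 libraries. The 5 with the highest Pearson r of log2(CPM + 20) were Sirpa (0.998), Hpgd (0.997), Nav3, Plek and Daglb (each 0.995). Sirpa, an inhibitory receptor gene, was at 247 and 443 CPM in microglia-like cells and at 66.1 and 50.6 CPM in endothelial-like cells. For Entpd1 they included Coq10b (0.988), Adamts1 (0.988), Man1a2 (0.986) and Lrba (0.984). The profiles share their libraries and free RNA, and the r values are descriptions over 8 points.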

How the data were processed

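The deposited matrices hold raw UMI counts per gene and barcode, made by the authors with Cell Ranger 2.0.1 and STAR, per the submitters' processing notes, which name the builds GRCm38.p5 and mm10 and also Seurat 2.1.0. Barcodes with under 300 genes or over 10% mitochondrial UMIs were left out here (0 and 8). Both libraries were clustered together (scanpy 1.11.5, leidenalg 0.10.2, 2000 variable genes, 30 components, 15 neighbours, resolution 0.5) without Runx1, sex-linked genes and the listed purinergic genes. No doublet caller was used in the main analysis. The sort gated doublets out, per the labels' protocols. A cluster was named with at least 3 markers and at least 50% of a list counted, where no other type had more markers among its 10 leading genes or a larger share of its list. The list also needed at least 2 markers among those 10 genes, or else the next type's share had to be under 60% of its own. Endothelial, arterial and venous lists did not count as rivals of each other, and all gave the name endothelial. A marker counted at 20 CPM or more if it also passed the midpoint of its range across clusters. That rule was set after the clusters were seen.

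Levels are summed UMIs scaled to 1000000 UMIs of the same cells (CPM), with exact Poisson intervals. Ratios carry intervals from the exact binomial split of the UMIs, and shares carry Clopper-Pearson intervals, all at 95% and for counting error only. A gene was measured at 20 CPM in at least 1 library and counted as different at 1.5-fold. The interval was tried on simulated Poisson counts, for which it is built to hold. That trial therefore says nothing about spread beyond counting error. Genes and lists were chosen with earlier results of these data known. The named genes are the 9 members, listed genes at 20 CPM or more, and the 5 genes most like P2ry12 and Entpd1. One of the latter is not reported here. Listed genes under 20 CPM that are named (Nt5e, Tmigd3, Igsf10) were chosen after their values were seen. Gene positions come from GENCODE M21, which held 27645 of the 27998 gene IDs. Alternatives changed the scaling, depth, cell filter, doublets, clustering, free RNA, fold and minimum level.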

Additional observations from a re-analysis of the deposited data

Results flagged for a closer look

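The genes in this section had a ratio between the libraries with a counting interval above 0 in microglia-like cells and below 0 in vessel cells. The difference between the classes itself was not tested, since each group has 1 library. For P2ry12 the log2 ratio in microglia-like cells (0.87) minus that in endothelial-like cells (-0.44) was 1.31. For P2ry13 the values were 0.58 and -0.86, a difference of 1.43. For Gpr34 they were 0.27 and -1.02, a difference of 1.30, and against pericyte or smooth muscle-like cells (-0.43) the difference was 0.70. For Entpd1 they were 0.39 and -0.39, a difference of 0.78. Microglia marker sums were 48964 and 48885 CPM in microglia-like, 18539 and 6820 CPM in endothelial-like and 21584 and 10663 CPM in pericyte or smooth muscle-like cells of the wild-type- and knock-out-labelled libraries, and their part in these differences was not tested.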

How the results depend on the processing

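No paired analysis was possible because each group has 1 library and no result comes from a test. The count of genes at least 1.5-fold higher in microglia-like cells was 1. It was 2 with ratios centred on the median of all genes, with the mean of each cell's fraction, and under a cell filter of 1000 genes and 5% mitochondrial UMIs, where P2ry13 was the addition. It was 3 (with Gpr34) with the libraries clustered separately, where 649 knock-out cells were microglia-like, and 0 with free RNA taken out or at a fold of 2. The count of genes lower by as much was 0, and it was 1 with free RNA taken out, where the median log2 ratio of the genes measured turned from 0.21 to -0.10. Of all genes, 8.16% were higher and 12.5% lower in the main setting, and 1.79% and 5.39% at a fold of 2. For the other settings named here the share of all genes was not computed, so their counts have no background beside them. Over 14 alternatives the log2 ratio of P2ry12 lay between 0.54 and 1.19, P2ry13 between 0.28 and 0.99 and Entpd1 between 0.21 and 0.43, all above 0, while P2rx4 (-0.55 to -0.25) and Adora3 (-0.63 to -0.17) were below 0 in all. P2ry6 (-0.31 to 0.04), P2rx7 (-0.12 to 0.45) and Gpr34 (-0.08 to 0.62) took both signs. The alternatives include all filtered cells in place of microglia-like cells, which gave the lowest values of P2ry6 (-0.31) and Entpd1 (0.21). They also include the setting without cluster 13, which was added after the data were seen. The cause of the shifts between settings was not tested. Genes near 5 CPM, such as P2ry14 in microglia-like cells, are limited by depth.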
